A study of Mus musculus with 20 samples.

Results

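Starburst amacrine cells are the cholinergic interneurons of the retina. The 98 cells described here are all those to which the authors gave that name, out of 79009 cells in 20 libraries, or 0.124% of them, and they are exactly the 98 cells of a single authors' cluster. The tissue was retina of wild-type CD1 mice, kept as explants and electroporated either with a GFP control construct or with constructs for the homeodomain factors MEIS1, MEIS2 or an equal mixture of both (called the combination). It was labelled postnatal day 2 (P2) or postnatal day 5 (P5), while the series text gives 2 or 5 days as the length of treatment, so that P2 and P5 may stand for days in culture. Each age had 4 control libraries and 2 libraries per construct group. Cells sorted for GFP were profiled with 10x Genomics 3′ chemistry, in which a unique molecular identifier (UMI) counts 1 captured transcript. The labels tie no library to an animal, so that p-values measure only the spread between libraries, which may be technical.

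As background, starburst cells release both acetylcholine and GABA. They form a pair of mirror-image populations, ON cells in the ganglion cell layer and OFF cells in the inner nuclear layer, and give direction-selective ganglion cells their directional inhibition. In the neonatal retina they drive the cholinergic waves, and in the mouse they are generated before birth. Choline acetyltransferase (Chat) makes acetylcholine, Slc18a3 loads it into vesicles and Slc5a7 takes choline back up. The LIM-homeodomain factor Isl1 and the recognition receptor Megf10, which spaces neighbouring starburst cells, complete the 5 markers given for this type.

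The sequence just upstream of the start site is shown for 3 of the markers, since these genes are used to recognise the type. The windows are RefSeq's on GRCm38.p6, printed 5′ to 3′ on the minus strand, without any base that GENCODE vM21 annotates as exon. Capitals mark TAAT, the core bound by many homeodomain factors, searched on both strands (TAAT or ATTA, overlaps counted). The Chat window is chr14:32465990-32466159, the Slc5a7 window chr17:54299035-54299284 and the Isl1 window chr13:116309690-116309938.
Chat: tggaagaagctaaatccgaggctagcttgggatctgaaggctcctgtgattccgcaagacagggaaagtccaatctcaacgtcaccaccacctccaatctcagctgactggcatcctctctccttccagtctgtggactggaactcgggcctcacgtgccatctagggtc
Slc5a7: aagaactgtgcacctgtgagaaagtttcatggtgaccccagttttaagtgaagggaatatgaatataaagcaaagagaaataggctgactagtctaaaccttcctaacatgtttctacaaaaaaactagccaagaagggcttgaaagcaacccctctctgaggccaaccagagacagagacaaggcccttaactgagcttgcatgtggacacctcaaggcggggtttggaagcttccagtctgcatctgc
Isl1: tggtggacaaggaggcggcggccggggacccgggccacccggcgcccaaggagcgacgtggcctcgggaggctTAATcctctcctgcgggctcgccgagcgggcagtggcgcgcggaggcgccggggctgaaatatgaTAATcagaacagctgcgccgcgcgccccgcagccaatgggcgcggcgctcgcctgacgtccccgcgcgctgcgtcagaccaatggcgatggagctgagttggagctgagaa
The core occurred 2 times in the 249 bases before Isl1, and these letters were not in the 170 bases before Chat or the 250 bases before Slc5a7. Among 32851 RefSeq windows of the same lengths, 54.8%, 46.4% and 54.9% held it, so a match or its absence is common and is given as a description only. The genes lie at chr14:32408203-32465989 (Chat), chr17:54273590-54299034 (Slc5a7) and chr13:116298281-116309689 (Isl1), all on the minus strand of mm10, and Slc18a3 lies within the Chat locus at chr14:32462438-32464850.

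The cells were unevenly spread over the libraries. P2 control 1 held 29, P5 control 1 held 26 and P2 control 2 held 17, which together is 73.5% of all starburst cells. P2 combination 2 and P5 MEIS1 1 held 5 each, 9 libraries held 1 to 3, and 6 held none. Comparisons of expression used the 5 libraries with at least 5 starburst cells (82 cells), in which UMIs were summed over the starburst cells and over the cells the authors call amacrine. Starburst sums were shallow, from 32180 UMIs in P2 combination 2 to 304914 in P2 control 1, so that 1 UMI was worth 31.1 and 3.28 CPM (UMIs per 1000000 UMIs of the sum). Amacrine sums held 1532725 to 50317436 UMIs.

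The labels are in doubt for part of these libraries. In P2 control 1 the cell barcodes carry a combination library's name as prefix, and in P2 combination 2 a control's, while in 10 of 20 libraries, and in 1 of the 5 used here, that prefix equals the title. Counts of called genes and the values of Meis1, Meis2 and the P2 shares are therefore also given without both. The series text names other constructs, and the treatment tag contradicts the titles of several single-construct libraries. Titles were followed. Of the 98 starburst barcodes 1 recurred in another library.

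The label fitted the markers. Chat was at 250 CPM over all starburst cells and at 0.203 CPM over the 13556 amacrine cells, Slc18a3 at 127 and 0.176 CPM, and Slc5a7 at 27.7 and 0.111 CPM. No other cell type exceeded 1.07 CPM of Chat. Isl1 stood at 942 CPM in starburst and 771 CPM in bipolar cells, against 2.14 CPM in amacrine cells. Megf10 stood at 1016 CPM in starburst, 232 CPM in horizontal and 2.87 CPM in amacrine cells. Isl1 and Megf10 thus mark further types as well. At least 3 of the 5 markers had a UMI in 80 of 98 starburst cells and in 0 of the 78911 other cells, which allows a share of up to 0.0038% for counting error alone. The authors drew the cell types from these same counts, so the markers are a description without a test, and the p-values of other genes say only whether a difference repeats across libraries.

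**Figure D1:**
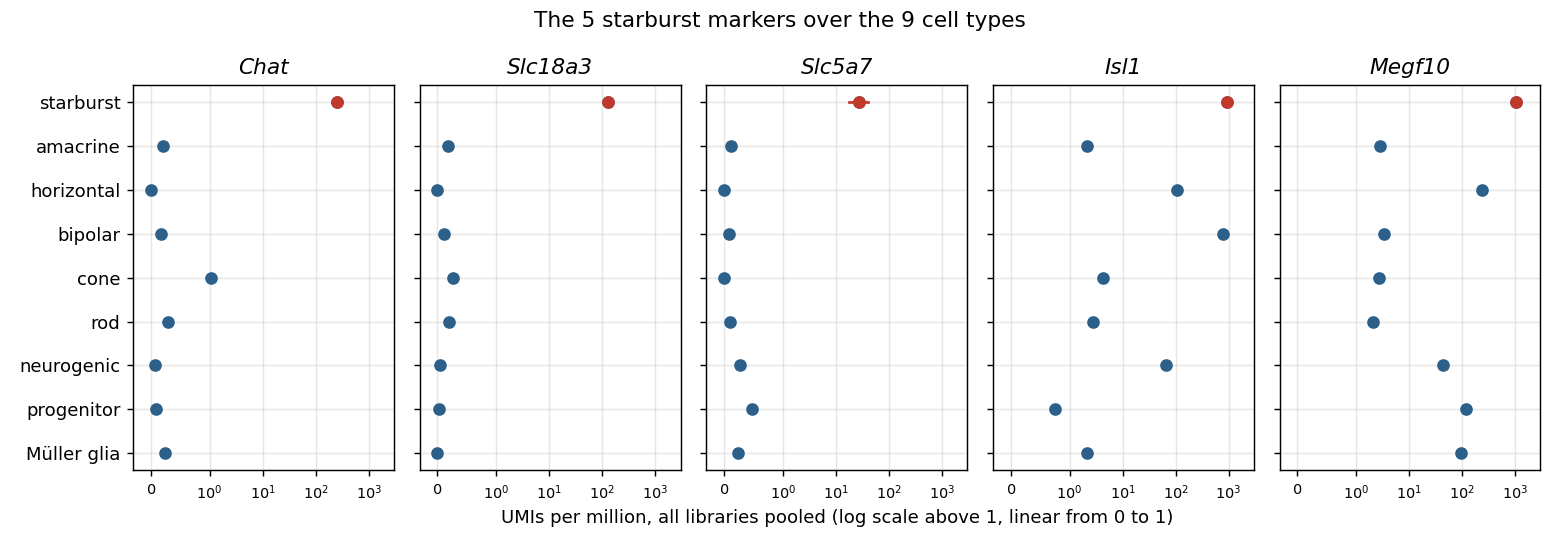
CPM of the 5 markers, pooled over all libraries, in each of the authors' 9 cell types (x axis: log scale above 1, linear below). The red points are starburst cells with an exact Poisson interval of their UMI count, the blue points the other types. Chat, Slc18a3 and Slc5a7 stand out in starburst cells alone, while bipolar cells reach 771 CPM of Isl1 and horizontal cells 232 CPM of Megf10.

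Within the type, markers were unequally caught. Megf10 had a UMI in 94.9% of the 98 cells, Isl1 in 89.8%, Chat in 71.4%, Slc18a3 in 57.1% and Slc5a7 in 13.3%. The corresponding shares of amacrine cells, which should lack these transcripts, were 1.79%, 1.17%, 0.162%, 0.140% and 0.0811%, at a median of 6517 UMIs against 7202 in starburst cells. After thinning each cell of the 5 libraries to 3000 UMIs, Chat was left in 56.25% of 80 starburst cells (Wilson interval 45.3% to 66.6%) and in 0.108% of 6488 amacrine cells, with 2 and 1957 shallower cells left out. Chat and Slc18a3 were caught together in 47 cells, Chat alone in 23 and Slc18a3 alone in 9. None of the 3 cholinergic transcripts was caught in 18 cells, whose median depth was 5254.5 UMIs against 8782 in the other 80. Of the 10 cells with at most 1 marker, with 912 to 21286 UMIs, 3 had none at all.

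Of the genes of the acetylcholine cycle, Chat, Slc18a3 and Slc10a4 separated both types in every library. Chat was at 154 CPM in P2 control 1, 226 in P2 control 2, 186 in P2 combination 2, 424 in P5 control 1 and 245 in P5 MEIS1 1, and never above 2.19 CPM in the amacrine sums. Slc18a3 lay between 102.5 and 175 CPM in starburst sums and at or below 1.22 CPM in amacrine sums. Slc5a7 rested on 24 UMIs, with 75.2 CPM in P5 control 1, 18.8 in P5 MEIS1 1, 3.28 in P2 control 1 and 0 in the other two, and did not pass the filter on low counts. Slc10a4, a vesicle protein of cholinergic neurons, was at 65.6, 41.1, 31.1, 30.8 and 37.6 CPM in the same order of libraries, against 0.487 to 1.60 CPM in amacrine cells, a log2 fold change of 5.57 ± 0.54 (SE, 5 libraries) with an edgeR adjusted p of 9.41e-23. All 5 starburst values were above all 5 amacrine values, which held for 2.83% of the genes tested (7.98% lay wholly below). Acly, which makes the acetyl-CoA used by Chat, was not called (log2 fold change -0.16 ± 0.32, adjusted p 0.846). The cholinesterases were low: Ache had 4 UMIs and Bche 0 UMIs in the 5 starburst sums together, although over all 98 cells Ache had 10 UMIs (11.1 CPM against 3.01 CPM in amacrine cells), and Colq, which anchors acetylcholinesterase, had none in any starburst cell. Of the 9 listed genes 4 were tested, and Slc10a4 besides the markers Chat and Slc18a3 was called, where 14.2% of all tested genes were.

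Across all genes, edgeR's quasi-likelihood test with library as a block called 1243 of 8725 genes at an adjusted p under 0.05, or 14.2%. These include the 4 markers that passed the filter, for which the call is no test. Of the 1243, 514 (5.89% of all tested) were higher and 729 (8.36%) lower in starburst cells, 41.4% higher against 30.0% without TMM scaling. The median log2 fold change of all genes was -0.16 with TMM and -0.31 without, and single changes are to be read against that shift. Without the pair of libraries in doubt 776 genes were called. A gene could pass the filter on low counts through either type alone, so a count over tested members leaves out those low in both. Starburst cells had a higher median share of mitochondrial UMIs than amacrine cells in all 5 libraries, 8.48% against 4.03% in P2 control 1 and 19.7% against 15.2% in P5 control 1, and more UMIs per cell. The part of these in the calls was not tested.

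**Figure D2:**
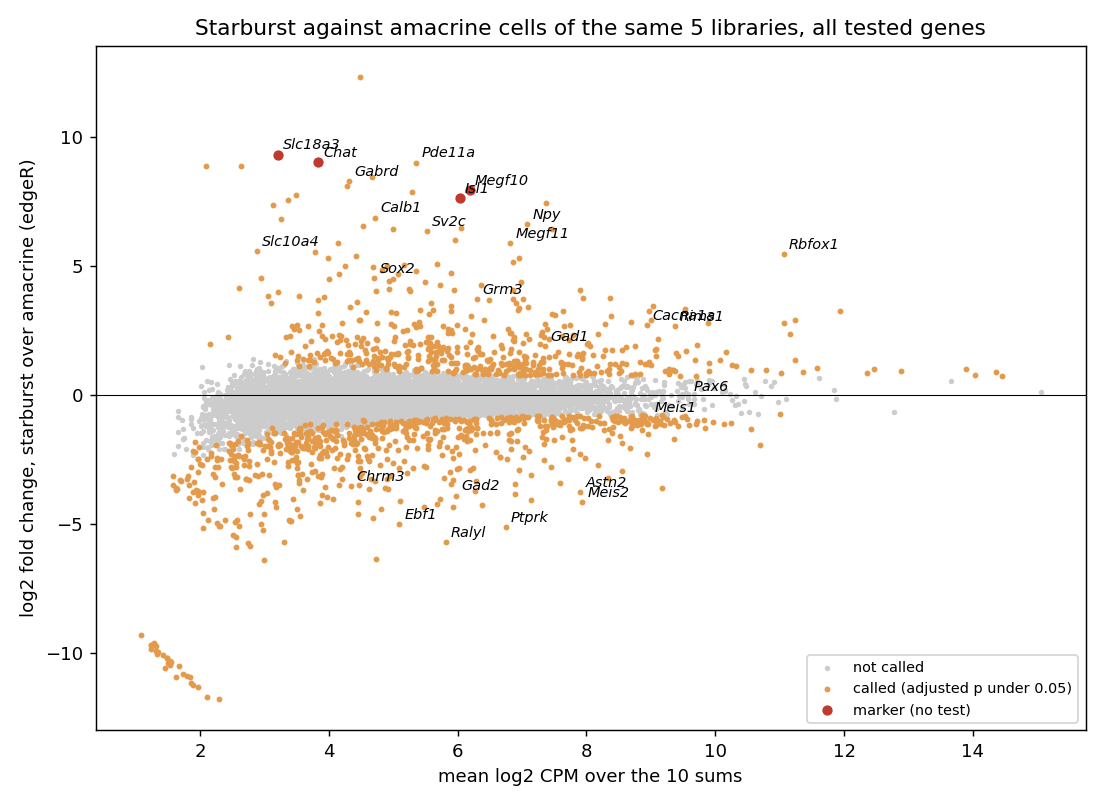
log2 fold change of starburst over amacrine sums (y axis) against the mean log2 CPM of the 10 sums (x axis) for the 8725 tested genes, with called genes in orange, others in grey and the markers in red. The lowest values belong to genes with 0 starburst UMIs (27 called genes), whose fitted fold change is no measure of size. Pde11a, Gabrd and Calb1 lie near the markers, and Rbfox1 combines a large difference with a high level.

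The 15 most enriched genes, chosen by size among called genes whose log2 CPM averaged 5 or more and whose direction was 1 in all libraries, included the markers Isl1 and Megf10. Pde11a, a phosphodiesterase of cyclic nucleotides, was at 626, 360, 932, 1274 and 828 CPM in P2 control 1, P2 control 2, P2 combination 2, P5 control 1 and P5 MEIS1 1, and at no more than 5.11 CPM in amacrine cells (log2 fold change 8.99 ± 0.39, adjusted p 8.4e-106). Rbfox1, a regulator of alternative splicing, reached 11567, 6646, 10317, 23244 and 23331 CPM in starburst sums and 128 to 1125 CPM in amacrine sums (5.45 ± 0.31, adjusted p 1.25e-62). The P5 libraries were the highest for Rbfox1 in both types. Cpne4, a calcium-dependent membrane-binding copine, had a log2 fold change of 7.86 ± 0.37, and Etl4 one of 7.42 ± 0.35. The extracellular and matrix genes Adamts18 (6.46 ± 0.33), Pappa (5.99 ± 0.32), Col25a1 (5.13 ± 0.33) and Vcan (5.06 ± 0.31) belonged to the same 15 genes. So did the secretory genes Scg2 (6.42 ± 0.33) and Npy (6.60 ± 0.34), the vesicle glycoprotein Sv2c (6.35 ± 0.32), the potassium channel Kcnk2 (5.32 ± 0.31) and the Megf10 relative Megf11 (5.87 ± 0.33). All 15 had their highest pooled level of the 9 cell types in starburst cells. Their choice by size from the same counts favours this, so it is a description only. Megf11 came next in horizontal cells, at 481 CPM against 911 in starburst cells.

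At the other end stood genes present in amacrine cells that starburst cells nearly lacked. Not all were highest in amacrine cells. Pooled over libraries, Nyap2 was at 2766 CPM in bipolar and 605 CPM in amacrine cells. Sorcs1 was at 968 CPM in Müller glia and 339 CPM in amacrine cells. Ralyl, an RNA-binding protein gene, was at 0, 20.5, 0, 17.1 and 37.6 CPM in starburst sums in the same order and at 357 to 1240 CPM in amacrine sums (log2 fold change -5.69 ± 0.43, adjusted p 5.19e-36). The receptor phosphatase Ptprk fell by 5.11 on the log2 scale, the transcription factor Ebf1 by 4.99, the synaptic adhesion gene Lrrtm4 by 4.35, the sorting receptor Sorcs1 by 4.24 and the teneurin Tenm1 by 4.10. Fstl5 (-4.34), Zfp804a (-4.26), Nyap2 (-4.06), Hs6st3 (-4.02), Adarb2 (-3.83) and Nckap5 (-3.70) belonged to the same group of 15. Astn2 was lower in all 5 libraries, at 20.5 to 34.2 CPM against 766 to 1410 CPM in 4 of them and at 847 against 1360 CPM in P5 MEIS1 1. There 36 of its 45 UMIs came from 1 of the 5 cells, which had UMIs of 4 markers, and single cells also held 9 of the 11 Sorcs1 and all 11 Nckap5 UMIs of that library.

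The GABA enzymes changed in opposite directions. Gad1 was at 226, 226, 559, 273 and 320 CPM in starburst sums and 36.2 to 155 CPM in amacrine sums, with no overlap (log2 fold change 1.89 ± 0.27, adjusted p 1.07e-10). Gad2, the other GABA-synthesising enzyme, was at 13.1, 0, 62.15, 10.25 and 94.1 CPM in starburst sums and 153 to 598 CPM in amacrine sums (-3.90 ± 0.41, adjusted p 6.08e-19). In single cells Gad1 had a UMI in 76.5% of starburst and 16.0% of amacrine cells, and Gad2 in 8.16% and 75.5%. After thinning the shares were 50.0% and 14.5% for Gad1 and 5.00% and 66.2% for Gad2. Both enzymes were caught in 7 starburst cells, Gad1 alone in 68 and Gad2 alone in 1, while Chat and Gad1 were caught together in 58. The GABA-degrading enzyme Abat was also lower (-2.78 ± 0.43). The vesicular transporter Slc32a1 (0.67 ± 0.29, adjusted p 0.107) did not pass the test. Both glycine transporters, Slc6a9 and Slc6a5, were called lower, as were 8.36% of all tested genes. Their summed level was 0 to 13.1 CPM in starburst sums, with a median of 0, against 46.4 to 96.6 CPM in amacrine sums. These starburst values lie at the floor, since 1 UMI was worth 3.28 CPM in P2 control 1 and 31.1 CPM in P2 combination 2.

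**Figure D3:**
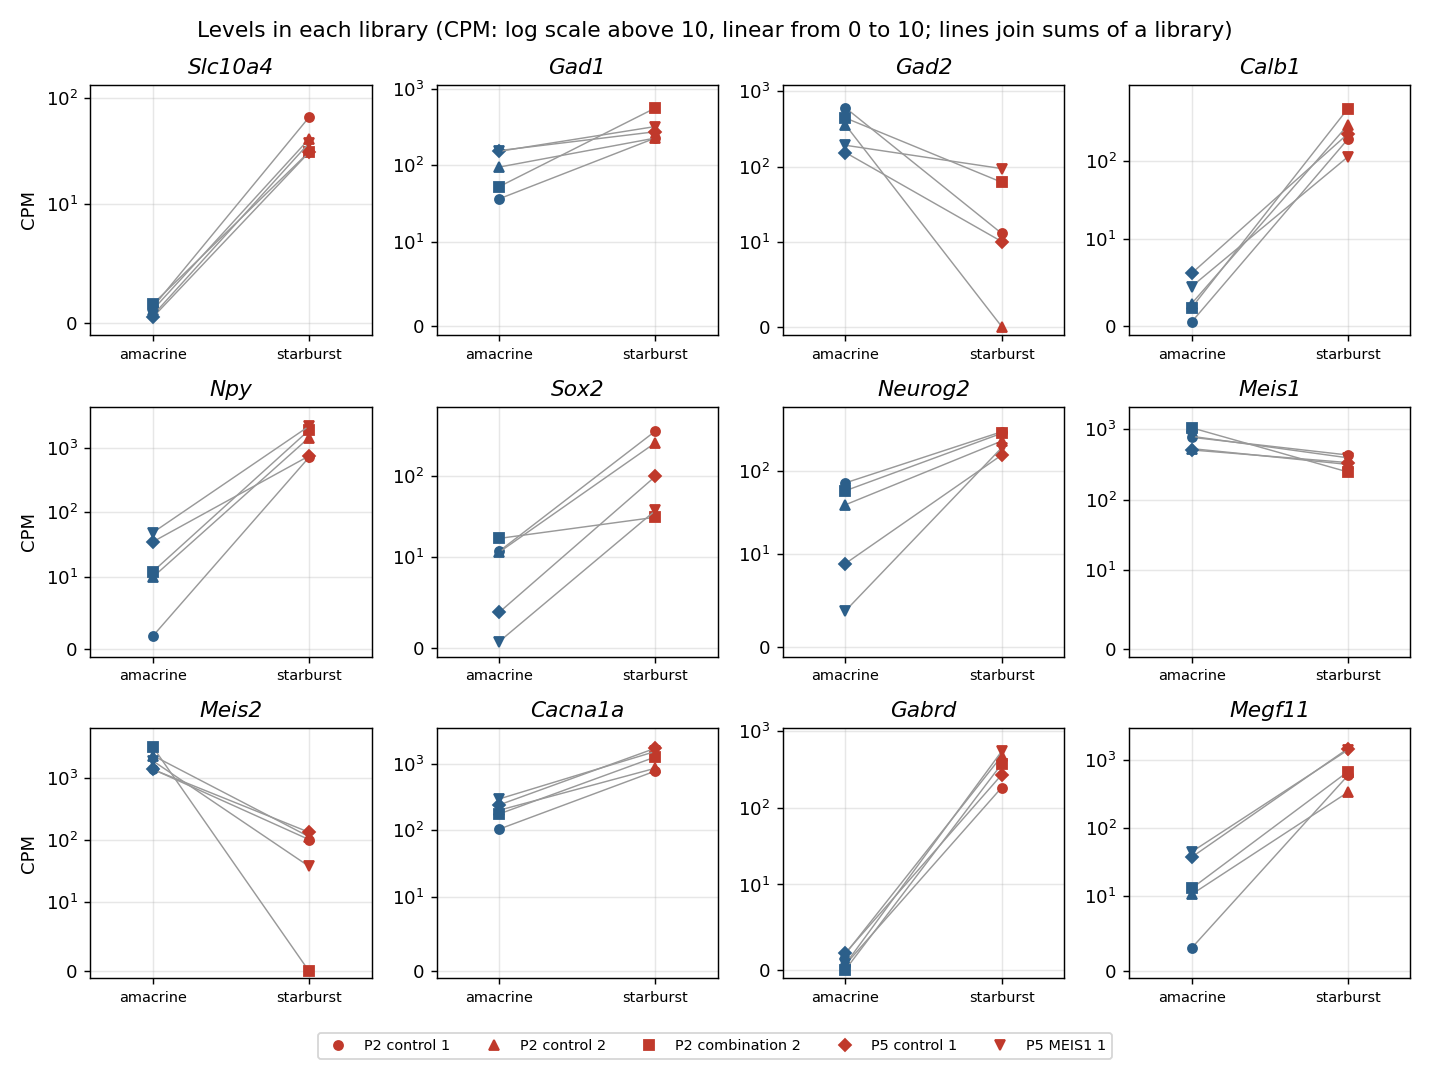
CPM of 12 genes in the amacrine (blue) and starburst (red) sums of the 5 libraries, which have a symbol each; lines join both sums of a library, and the y axis is logarithmic above 10 and linear below. Gad1 rises and Gad2 falls from amacrine to starburst cells, and Meis2 falls in all 5 libraries.

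Among 52 listed transcription factors of starburst and other amacrine cells, 35 were tested, 4 were higher and 20 lower (5.89% and 8.36% of all tested genes), with a median log2 fold change of -1.73. Besides the marker Isl1 the higher ones were Sox2, Nr4a2 and Tbx2. Sox2, a factor that starburst cells keep after progenitors have left the cycle, was at 358, 257, 31.1, 99.1 and 37.6 CPM against 0.652 to 17.0 CPM in amacrine cells (4.51 ± 0.34, adjusted p 6.72e-38). Progenitors were at 181 CPM, close to the pooled 201 CPM of starburst cells, while of the 9 listed progenitor and cell-cycle genes 1 was tested and lower (Hes5), and Top2a had no UMI in any starburst cell. Isl1 and Sox2 were caught together in 55 cells. The lower factors included Ebf1, Ebf3, Lhx9, Neurod2, Tfap2c, Maf and the NFI genes Nfia (-2.83 ± 0.38), Nfib (-2.04 ± 0.34) and Nfix. Nfix rested on 1 starburst UMI. Nfia was lower in 4 libraries but higher in P5 MEIS1 1, at 263 against 206 CPM, with its 14 UMIs from 2 cells. The general amacrine factors Pax6 (-0.04 ± 0.27, adjusted p 0.956), Tfap2b (-0.16 ± 0.28) and Tfap2a (-0.52 ± 0.29) were not called. The proneural factor Neurog2, singled out after its values were seen, was at 154 to 292 CPM in starburst and 3.92 to 71.4 CPM in amacrine sums (3.06 ± 0.29, adjusted p 1.06e-23).

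Meis2, whose product the study overexpressed, was among the genes most reduced in starburst cells. Meis2 was at 102, 113, 0, 133 and 37.6 CPM in starburst sums, against 1380, 2292, 3155, 1369 and 1882 CPM in the amacrine sums of the same libraries (log2 fold change -4.16 ± 0.33, adjusted p 1.86e-33). Every starburst value lay below every amacrine value. Meis1 was lower to a smaller degree, at 433, 318, 249, 338 and 395 CPM against 773, 534, 1054, 511 and 798 CPM (-0.88 ± 0.28, adjusted p 0.0154). That call did not hold in 6 of the 17 alternatives, over which the adjusted p ran from 0.00239 to 0.394. Over all 98 cells starburst ranked 7th of 9 types for Meis1. Among 11 listed TALE homeodomain genes, the family of MEIS and its partners, 9 were tested and 4 were lower (8.36% of all tested genes), among them Pknox2 (-1.19 ± 0.41, adjusted p 0.0322). In the libraries titled P2 control 1, P2 control 2 and P5 control 1 alone the Meis2 difference was -3.56 on the log2 scale and that of Meis1 -0.52 (edgeR adjusted p 0.274). Without both libraries in doubt Meis2 was at -3.95 and Meis1 at -0.64 (adjusted p 0.394). Whether the counted Meis1 and Meis2 UMIs include transcripts of the constructs is not given in the sources used here, which bears on the values of P2 combination 2 and P5 MEIS1 1. The 5 cells of P2 combination 2 had 0 Meis2 and 8 Meis1 UMIs, and the 5 cells of P5 MEIS1 1 had 21 Meis1 UMIs, 13 of them in 1 cell. In P2 MEIS2 1, 174 of the 194 Meis2 UMIs of its 3 starburst cells came from 1 cell, which also held 1932 GFP UMIs and no UMI of any of the 5 markers. A second cell of that library with 212 GFP UMIs and 20 Meis2 UMIs had no marker either.

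Molecules of cell spacing, lamination and recognition were divided. Of 65 listed genes 58 were tested, 14 were higher, the marker Megf10 among them, and 27 lower (5.89% and 8.36% of all tested genes), and the median log2 fold change was -0.76. The teneurin Tenm3, at 886 to 1797 CPM against 340 to 709 CPM, was higher (1.35 ± 0.27, adjusted p 1.21e-05), as was the semaphorin receptor Plxna2 (0.97 ± 0.27, adjusted p 0.0044), whose values overlapped and whose call was lost in 3 alternatives. Its ligand Sema6a, which ON starburst cells carry, was not called (0.25 ± 0.28, adjusted p 0.675). Unc5d (-4.42 ± 0.46) and Tenm1 were lower, and Tenm4, Dscam, Sdk1, Sdk2, Robo1, Slit2 and 4 Eph receptors were also lower. Higher members included Tenm2, Cntn5, Cntn6, Cntnap2, Cdh6, Pcdh9, Flrt2 and the Eph receptor Epha5. Fezf1, a factor of ON starburst cells, had a UMI in 6 of 98 cells, all of them among the 62 P2 cells and none among the 36 P5 cells, and in 0.0221% of amacrine cells. Tenm3 was caught in 69 cells, 2 of them with Fezf1. Fezf1 did not pass the filter on low counts, and ON and OFF cells were not separated here.

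Receptors for the signals that starburst cells receive were higher for some members and lower for others. The delta subunit of GABA-A receptors, Gabrd, was at 184, 473, 373, 270 and 546 CPM in starburst sums and never above 1.95 CPM in amacrine sums (log2 fold change 8.29 ± 0.35, adjusted p 3.01e-108). Of 12 tested GABA and glycine receptor genes (21 listed), 4 were higher and 4 lower (5.89% and 8.36% of all tested genes). Gabra2 (1.84 ± 0.27) was among the higher ones, and the lower ones were Gabra3 (-2.49 ± 0.55), Gabrg3, Gabbr2 (-2.64 ± 0.41) and the glycine receptor Glra2 (-2.86 ± 0.40). The call of Gabra3 rested on 6 starburst UMIs and was lost in 4 alternatives. Of 19 tested glutamate receptors (24 listed), 3 were higher and 7 lower (5.89% and 8.36% of all tested genes). The metabotropic receptor Grm3 was at 123 to 721 CPM against 9.30 to 37.8 CPM (3.72 ± 0.30, adjusted p 5.86e-32). Grm2, the receptor by which starburst cells are often identified, was at 0 to 54.7 CPM with 31 UMIs and was not tested. Gria1 was higher (1.19 ± 0.27), with overlapping values and a call lost in 2 alternatives, and Grm7 (-2.05 ± 0.31) and Grid1 (-1.79 ± 0.32) were lower, the call of Grm7 being lost in 1 alternative.

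Voltage-gated channels changed in both directions. Cacna1a, the pore of P/Q-type calcium channels, was at 784, 863, 1274, 1726 and 1543 CPM in starburst sums and 105 to 297 CPM in amacrine sums (2.70 ± 0.28, adjusted p 6.68e-20), and the N-type channel Cacna1b was higher too (1.52 ± 0.28, adjusted p 1.47e-06), with overlapping values. Both carry transmitter release in starburst cells. The fast potassium channel Kcnc1 was higher (1.57 ± 0.29) and its relative Kcnc2 was not called (-0.37 ± 0.31, adjusted p 0.543). Of the 27 voltage-gated channel genes tested (34 listed), 6 were higher and 14 lower (5.89% and 8.36% of all tested genes), the latter with Scn2a (-2.83 ± 0.48), Kcnq3 (-2.57 ± 0.41) and Kcnh7 (-2.09 ± 0.31). The chloride exporter Slc12a5 was lower (-1.94 ± 0.43, adjusted p 9.04e-05), resting on 15 starburst UMIs, and the importer Slc12a2 did not pass the test (-1.07 ± 0.54, adjusted p 0.213). Of the 18 listed acetylcholine receptor genes 3 were tested. The nicotinic subunit Chrna4 was higher, at 18.8 to 52.5 CPM against 7.83 to 16.0 CPM (2.13 ± 0.43, adjusted p 1.65e-05), Chrnb2 was not called (0.43 ± 0.47, adjusted p 0.677), and the muscarinic receptor Chrm3 was lower (-3.54 ± 0.46, adjusted p 1.12e-12), although P5 MEIS1 1 had 75.3 CPM of it.

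Of 28 listed synaptic vesicle genes 22 were tested, 9 were higher and 4 lower (5.89% and 8.36% of all tested genes). Rims1, an active-zone scaffold, was at 1070 to 2414 CPM against 174 to 419 CPM (2.67 ± 0.29, adjusted p 1.06e-18), and Rab3b was at 47.8 to 157 CPM against 8.48 to 22.9 CPM (2.81 ± 0.34). Syt1, Syt4, Syt6, Snap25, Syn1 and Rab3a were also higher, and Syn3 (-2.56 ± 0.42), Sv2b, Stx3 and Cplx3 were lower. Among calcium-binding proteins, Calb1 was at 190, 288, 466, 222 and 113 CPM against 0.497 to 6.08 CPM (6.86 ± 0.34, adjusted p 1.76e-81). Calb2, calretinin, had overlapping values (62.15 to 301 against 45.0 to 96.2 CPM), was higher in 3 libraries and lower in P2 control 1 and P2 combination 2, and had a fitted log2 fold change of 1.47 ± 0.29 (adjusted p 6.97e-06), a call that 1 alternative lost. Hpcal1 was higher by 2.63 ± 0.33. Pvalb had no UMI in a starburst cell.

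Defining markers of other cell types were mostly at or near 0 in starburst cells. Of 23 markers of other amacrine types 10 had no UMI in any starburst cell, among them Th, Vip, Sst, Penk and Slc17a8, 7 were tested, 6 were lower and Npy alone was higher (8.36% and 5.89% of all tested genes). Npy was at 712, 1428, 1864, 745 and 2145 CPM against 1.85 to 48.9 CPM, and was caught in 69 starburst cells, 55 of them with Chat. The ganglion cell genes Pou4f1, Pou4f2, Pou4f3, Sncg, Slc17a6 and Thy1 had 0 UMIs. Rod transcripts were no higher than in amacrine cells: the summed level of the 10 rod markers was 155 to 1117 CPM against 250 to 2513 CPM, and Gnat1 had no UMI. Bipolar markers other than Isl1 were low, and Vsx1, Grm6 and Cabp5 had no UMI. The microglial receptor P2ry12 had a UMI in 30.6% of starburst and 3.19% of amacrine cells, while C1qa and C1qb had none and Cx3cr1 had a UMI in 4.08% and 3.53%. P2ry12 did not pass the filter on low counts and was not tested.

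Differences between the ages were fewer and rest on few libraries. The starburst minus amacrine difference at P5 less that at P2 was called for 67 of 8725 genes (0.768%), 35 with a higher and 32 with a lower difference at P5, the marker Isl1 included. P5 is represented by 31 cells of P5 control 1 and P5 MEIS1 1. Without P2 control 1 the count was 7, and without both libraries in doubt it was 4. The guidance molecule Sema3a was at 312, 359.5 and 870 CPM in the P2 starburst sums and 78.6 and 75.3 CPM in the P5 sums, while in amacrine sums it was at 14.0 to 52.2 and 74.4 to 130 CPM (difference -4.07 ± 0.53, adjusted p 6.31e-11). The nuclear receptor Nr4a3 (-3.79), Vcan (-2.46) and the cannabinoid receptor Cnr1 (-2.41) also had P2 starburst values that lay above those at P5. Such genes were chosen for having no overlap between the ages, so the separation is a description only. Pappa2 went from 13.1, 51.4 and 31.1 CPM at P2 to 451 and 339 CPM at P5 (4.06, adjusted p 5.18e-08), and Grm7 from 72.1, 71.9 and 93.2 CPM to 629 and 508 CPM (2.93, adjusted p 0.000209). Neurog2 had a larger difference at P5 (2.59) although its starburst values were lower there, at 154 and 188 CPM against 226 to 292 CPM, since its amacrine values were 39.1 to 71.4 CPM at P2 and 3.92 to 9.01 CPM at P5. The starburst values of Calb1 (-2.59) at both ages overlapped, while its amacrine values were 0.497 to 2.61 CPM at P2 and 4.57 to 6.08 CPM at P5.

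Starburst cells carried little of the construct's GFP. Their median GFP count per cell was 7 UMIs in P2 control 1, 1 in P2 control 2, 2 in P2 combination 2, 3 in P5 control 1 and 2 in P5 MEIS1 1. Per 10000 UMIs the medians were 8.28, 2.17, 2.21, 3.21 and 2.10, the lowest of all cell types in 4 libraries and the second lowest, after horizontal cells, in P2 control 1. Progenitors of the same libraries had 214, 29.1, 17.9, 185 and 47.7. Every deposited cell has at least 1 GFP UMI, and 41 of the 98 starburst cells had at most 2. Only 11 had over 20. The summed GFP level therefore depends on single cells: in P5 control 1 it was 4859 CPM with 1 cell of 1316 UMIs and 397 CPM without it, next to 1549 CPM in amacrine cells. The fitted difference (-1.95 ± 0.37) did not pass the test in 9 of 17 alternatives and differed between the ages by 5.32 on the log2 scale (adjusted p 2.65e-22), and no direction is read from it.

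**Figure D4:**
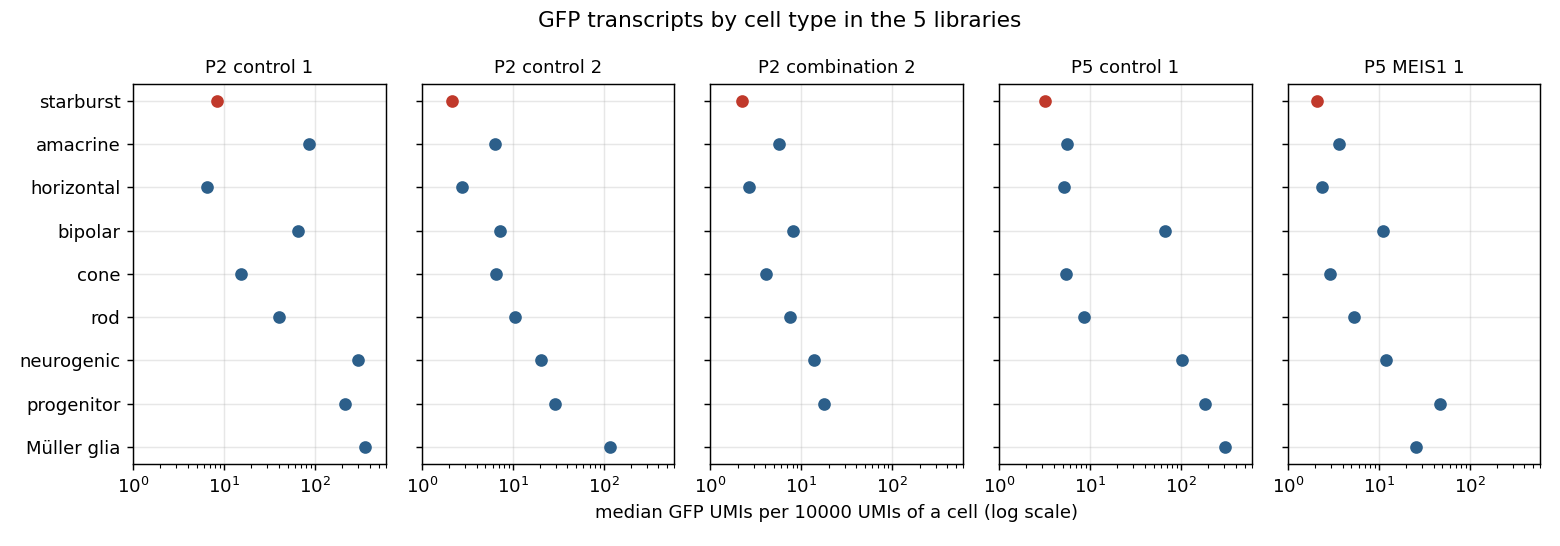
Median GFP UMIs per 10000 UMIs of a cell (x axis, log scale) for each cell type in the 5 libraries. Starburst cells, in red, lie between 2.10 and 8.28 and are at or next to the lowest value in each library.

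Whether MEIS constructs change the number of starburst cells could be asked only coarsely. Starburst cells made up 0.163%, 0.361%, 0.0380% and 0.0498% of the cells of P2 controls 1 to 4, and the 6 P2 libraries with a MEIS construct ranged from 0% to 0.284% with a median of 0.0713%. At P5 the controls had 0.413%, 0.0253%, 0% and 0%, and the construct libraries 0% to 0.199% with a median of 0.0438%. Groups overlapped at both ages. The mean difference of MEIS less control was -0.0496 percentage points at P2 (two-sided exact permutation p 0.524; -0.0821 without both libraries in doubt, exact p 0.5) and -0.0459 at P5 (exact p 0.705), and P5 controls differed from P2 controls by -0.0434 points (exact p 0.657). As a share of amacrine and starburst cells the P2 controls had 0.818% ± 0.846 (SD, n = 4) and the P2 construct libraries 0.517% ± 0.568 (SD, n = 6, exact p 0.505), a difference of -0.301 points that was -0.586 without both libraries in doubt (exact p 0.321). At P5 these shares were 0.889% ± 1.384 and 0.978% ± 1.26 (exact p 0.952), and the controls of the ages differed by 0.0709 points (exact p 0.943). All 6 tests had an adjusted p of 0.952, and the smallest p possible was 0.00952 for 6 against 4 libraries and 0.0286 for 4 against 4. A library of 1959 cells with none, P5 control 4, still allows a share of up to 0.153%. What size of difference these tests could detect was not tested, and no equality of the groups is read from them.

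**Figure D5:**
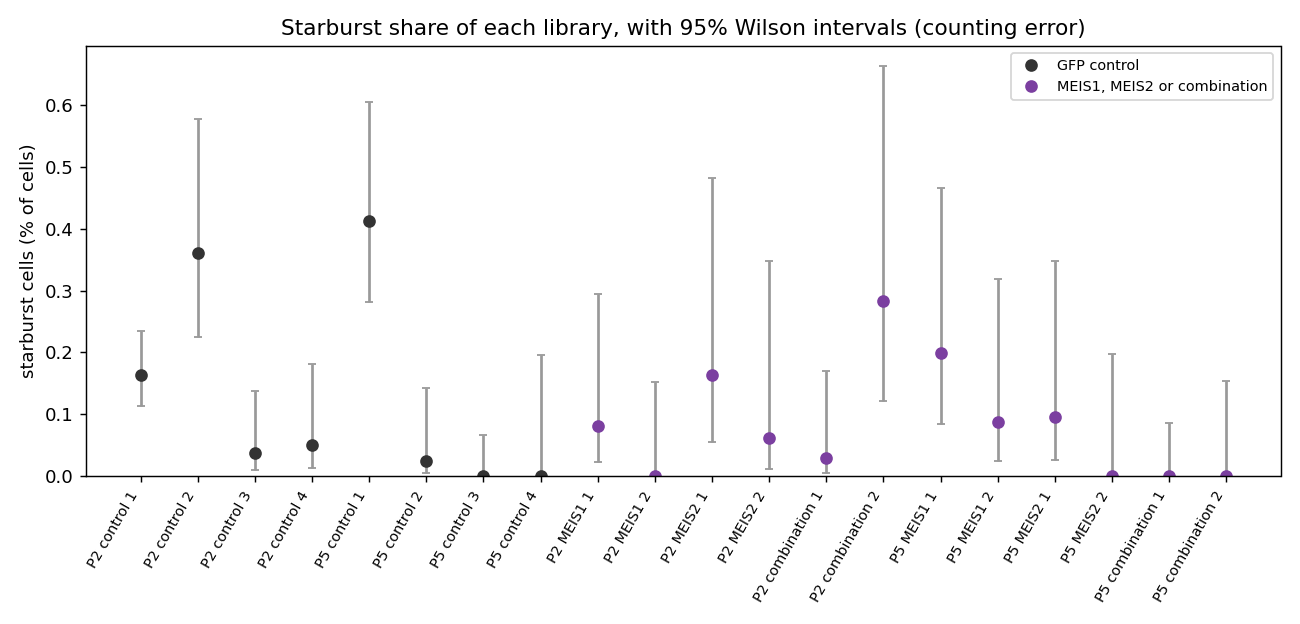
Starburst cells as a percent of all cells in each of the 20 libraries, with 95% Wilson intervals that cover counting error only; controls are black and construct libraries purple. P5 control 1 at 0.413% and P2 control 2 at 0.361% lie highest, and 6 libraries lie at 0.

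Shares moved with the share of cells of low GFP in a library. Across the 20 libraries the starburst share and the percent of cells with at most 2 GFP UMIs, which ran from 4.57% to 61.1%, had a Pearson r of 0.593 (permutation p 0.00637, 0.0127 adjusted over 2 relations) and a Spearman rho of 0.392 (p 0.0881). Without the 2 libraries farthest from the median, r was 0.673. Within P2 Pearson r was 0.620 over 10 libraries but -0.363 without the 2 farthest, so it rests on those, and within P5 it was 0.652 and 0.837. The median mitochondrial percent gave r of 0.468 and rho of 0.356 (permutation p 0.0357 and 0.125) over the 20 libraries, and r of 0.118 without the 2 farthest, so that it rests on those as well. Within P2 r was 0.679 and 0.705, and within P5 0.724 and 0.122, with all libraries and without the 2 farthest.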

How the data were processed

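The counts are UMI counts per gene and cell that the authors deposited with a table of cells holding their cell types, clusters and mitochondrial percent. Per the series' design text, reads were aligned with Cell Ranger to mm10 with a GFP locus added, and Seurat 5 is named in the submitters' processing notes. The percent of mitochondrial UMIs is the authors' deposited value. Doublet removal before deposit is not given in the sources used here.

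UMIs were summed per library and cell type. Libraries with at least 5 starburst cells entered edgeR 4.0.16 (R 4.3.3, TMM factors, filterByExpr, quasi-likelihood F test, library as a block, Benjamini-Hochberg adjustment over all genes, threshold 0.05). Standard errors are the log2 fold change divided by the square root of F. CPM values carry no TMM factor. The block pairs both sums of a library: same-library deviations correlated at 0.094 to 0.383, against -0.340 to 0.309 between libraries. Shares were compared with two-sided exact permutation tests. On simulated counts for 8474 genes, 200 genes above a minimum amacrine level were changed. Of these, 85% of 4-fold increases and 73% of 4-fold decreases were recovered. Recovery of genes low in amacrine cells was not tested.

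Scrublet (scanpy 1.11.5) was run per library as a check. It marked 2 starburst cells, and 0 of 4712 cells of P2 control 2 and 1 of 6292 cells of P5 control 1, so it did not work there. The members, the 23 gene lists and the tests were chosen with earlier results of these data known. The 15 largest called changes each way were named among genes averaging 5 or more in log2 CPM with 1 direction throughout. Of age differences, 6 each way were named, the largest called ones at that level whose starburst values did not overlap between P2 and P5. Larger called age differences outside these conditions, such as Fign (-11.3), Sema3d (-4.33) and Mylk (12.0), were left out of that choice. Also named were up to 4 called members per list, the acetylcholine list, Meis1, Meis2 and GFP. Others were added for context, among them Neurog2, Fezf1, Cx3cr1, Sox2, Gad1, Pax6, Plxna2 and Cacna1b. Fits by DESeq2 1.42.0, other filters, thinning and left-out libraries were alternatives. Per-sample columns left unused numbered 0. Intervals and floors cover counting error only. A few genes are not reported here.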

Additional observations from a re-analysis of the deposited data

Results flagged for a closer look

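Among the 4 controls of an age, a library stood apart in 2 of 4 tests by Dixon's ratio, the gap to the nearest value over the range. The limit is set for about 1 in 20 per test in normally distributed values. Shares of few cells, 0 in some P5 controls, need not follow that, so no chance rate is read from the count. The ratios were 0.834 for P2 control 2 and 0.939 for P5 control 1. The tests covered 2 shares at each age. Both shares count the same starburst cells, so the tests are not independent. P2 control 2 lay far above the other P2 controls, with 2.07% of its amacrine and starburst cells called starburst. P5 control 1 lay far above the other P5 controls, with starburst cells at 0.413% of all cells.

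The starburst minus amacrine difference changed between the ages, by a test of the difference itself, for 20 of the genes described. Isl1, a marker of the type, is listed with them as a description without a test. The change (P5 less P2, log2) was negative for Sema3a (-4.07), Nr4a3 (-3.79), Cpne4 (-3.30), Stmn4 (-3.23), Calb1 (-2.59), Npy (-2.53), Isl1 (-2.51), Ly6h (-2.47), Vcan (-2.46), Cnr1 (-2.41), Sv2c (-2.20) and Scg2 (-1.95). For 6 of these, Sema3a, Nr4a3, Stmn4, Ly6h, Vcan and Cnr1, all starburst values at P2 lay above those at P5. That separation was a condition for choosing these 6 and is no result. For Cpne4, Calb1, Npy, Sv2c and Scg2 the starburst values of the ages overlapped, while every amacrine value was higher at P5 than at P2. Cpne4 was at 735, 514 and 559 CPM at P2 and 629 and 527 CPM at P5 in starburst sums. In amacrine sums it was at 0 to 2.98 and 7.06 to 12.4 CPM. It was positive for GFP (5.32), Nfia (4.15), Pappa2 (4.06), Astn2 (3.45), Ptprt (3.31), Plcl1 (3.01), Grm7 (2.93), Neurog2 (2.59) and Calb2 (2.30). In P5 MEIS1 1 a single cell held 36 of 45 Astn2 UMIs and a single cell 28 of 32 Ptprt UMIs, and in P5 control 1 a single cell held most GFP. In P5 MEIS1 1 the 14 Nfia UMIs came from 2 cells, and Nfia was higher than in amacrine cells there alone. Without P2 control 1, 15 of the 20 no longer passed the test.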

How the results depend on the processing

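The starburst sums are shallow, and counts of called genes moved with the libraries and the amacrine depth. Against 1243 called genes, 613 were called without the library block that pairs both sums, 478 of 1772 tested with amacrine sums thinned to the starburst totals, and 776 without both libraries with the barcode name of another group, an alternative chosen after seeing the data. The block is the pairing of both sums of a library, and without it 23 of 99 described genes lost their call. DESeq2 called 929. With each library left out in turn the count was 870 to 1272. No called direction reversed among the described genes that an alternative tested, which were 64 of 99 with thinned sums.

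Against 67 genes whose difference changed with age, DESeq2 called 21, no filter on low counts 43, libraries of at least 10 starburst cells (the 3 controls) 109, thinned sums 9, and leaving out both odd-barcode libraries 4. With each library left out the count ran from 7 (P2 control 1) over 38 (P5 control 1) and 40 (P2 control 2) to 80. Cpne4, with 84 UMIs in the 5 amacrine sums before thinning, turned from -3.30 to 0.055 with thinned sums. The cause was not tested.

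No share difference passed its test in any alternative. For the share of cells, leaving out single libraries gave MEIS less control differences of -0.0879 to 0.0197 points at P2, where leaving out P2 control 2 turned the sign, and of -0.0824 to 0.0553 at P5, where P5 control 1 did. The controls of both ages differed by -0.145 to 0.0259 points, turned by P2 control 2. For the share of amacrine and starburst cells the ranges were -0.504 to 0.117 at P2, -0.340 to 0.764 at P5 and -0.604 to 0.488 between ages. With libraries of a replicate number paired as a block, the share of cells differed by -0.159 points at P2 and -0.156 at P5 (without it -0.0496 and -0.0459), and the P2 share of amacrine and starburst cells by -0.754 (without it -0.301). Controls 3 and 4 of each age have no construct library of their replicate number, so these differences rest on controls 1 and 2. The pairing follows the numbers in the titles only. At P5 the difference of 0.0892 became -0.800 with the replicate block, -0.354 with cells of at least 3 markers and -0.504 as edgeR's log2 ratio, and between ages 0.0709 became -0.0444 without both odd-barcode libraries. The replicate block left out controls 3 and 4 here too. The cause of the other changes was not tested.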
